A study of Mus musculus with 15 samples.

Results

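The C-type lectin receptors examined here were 10 mouse genes chosen by name, the Dectin, Mincle and related lectins and the mannose receptor of macrophages, out of the 57186 genes in the count table. They were Clec4a1, Clec4a2, Clec4a3, Clec4d, Clec4e, Clec4n, Clec7a, Clec12a, Clec5a and Mrc1, and their RNA was measured by poly(A) RNA sequencing in RAW264.7 cells, an established mouse macrophage line. The question of the study was how silica nanoparticles of different size, porosity and density change gene expression in macrophages that have taken up as many particles as they can hold. Each group had 3 libraries, and all were collected at 6 h. The controls were nontreated cells. The SNP100-treated group received nonporous particles of nominally 100 nm at 50 µg/mL, and the SNP50-treated group nonporous particles of nominally 50 nm at 25 µg/mL. The MSNP-treated group received mesoporous particles of nominally 100 nm at 200 µg/mL, and the HMSNP-treated group hollow mesoporous particles of nominally 100 nm at 200 µg/mL. The doses were the highest nontoxic ones, so that nominal size and dose differ together between SNP50 and SNP100, and porosity and dose between MSNP and SNP100. HMSNP and MSNP shared dose by mass, time and nominal size. The paper describes HMSNPs as less dense, with a surface of different composition, and proposes that their uptake could be slower. Hollowness, density, surface and uptake cannot be told apart between these groups. The library titles begin with a number that differs between the groups and whose meaning the labels do not give, so that treatment cannot be told apart from whatever it marks. The labels do not say whether the 3 libraries of a group came from separate cultures, and the p-values measure only the spread between these libraries, which may be technical.

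C-type lectin receptors are surface proteins with a carbohydrate recognition fold, by which macrophages bind sugars and lipids of fungi and bacteria, material of dying cells and, for some members, crystals. The activating members signal through the kinase Syk, either through an immunoreceptor tyrosine motif on a partner chain such as the Fc receptor gamma chain (Fcer1g) or DAP12 (Tyrobp), or through a motif of their own, and the adaptor CARD9 carries the signal on to NF-kB. The inhibitory members carry a motif that recruits phosphatases such as SHP-1 (Ptpn6), and the mannose receptor works mainly in uptake.

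The libraries held between 29369934 and 42617812 counts on genes. CPM is the count scaled to a fixed library total, here a total adjusted by the TMM normalization factor of each library. The 9 macrophage markers examined were above 3 counts in every group. Their summed levels were 16023 to 20384 CPM in the controls, 13318 to 14274 CPM with MSNP and 15675 to 16836 CPM with HMSNP. Of those 9 markers, 6 were lower and 1 higher in the MSNP-treated group at an adjusted p under 0.05 (edgeR), and 0 passed in the HMSNP-treated group. Among all tested genes 11% were lower and 11.8% higher with MSNP, and 2.7% and 2.46% with HMSNP. Markers of T cells reached at most 1 count in a library, those of B cells at most 5, and those of fibroblasts and epithelial cells at most 3. The summed neutrophil markers were 1.36 to 3.23 CPM in the controls, with the defining Ly6g and S100a9 at 0 counts in every library. In each group 1 of the 4 neutrophil markers was above 3 counts, with up to 123 counts in a control library. The dendritic cell markers summed to 2.47 to 4.35 CPM over all groups, most of it Zbtb46, and Flt3 reached at most 1 count. In every group 3 of the 4 dendritic cell markers, all but Flt3, were above 3 counts. In bulk RNA, fewer cells of a type and less RNA per cell cannot be told apart.

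The nontreated library labelled replicate 3 stood apart from the other controls with exonic length. That length is the union of all annotated exons of a gene, which can exceed that of the transcript expressed. Relative to them its level was higher by a median of 0.61 (log2) in the 1066 shortest of 10659 well expressed genes and lower, with a median difference of -0.60, in the 1066 longest. The controls also differed more among themselves than the libraries of a treated group did. The chi-square per gene of a pair of libraries was 66.2 for Control replicates 1 and 2, and 4.58 to 13.9 within the treated groups. With Control replicate 3 it was 174 and 205. The fit of all libraries shares a spread per gene over the groups, so p-values against the controls may be too small. Among the members, Control replicate 3 differed from the other nontreated libraries by 0.66 (log2) for Clec4d, 0.53 for Clec12a, 0.50 for Clec4a2, 0.29 for Clec4a3 and -0.80 for Mrc1, and by 0.04 to 0.19 for the others. By that measure of length the members did not all follow the trend. Clec12a (5892 bases of exon) was at 0.53, where genes with a median length of 5893 bases were at -0.01. Clec4n (1420 bases) was at 0.19, where the shortest genes were at 0.61. The comparisons were therefore also fitted without Control replicate 3, and with an offset for the trend of each library with length. The offset can correct only the part that follows length.

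In the genome (GRCm39), 9 of the members lie on chromosome 6 and Mrc1 on chromosome 2. Clec4a1 (122896122 to 122911578), Clec4a3 (122929380 to 122948807), Clec4a2 (123083387 to 123120958), Clec4n (123206802 to 123223980) and Clec4d (123239070 to 123252230) are on the plus strand of one stretch, and Clec4e (123258748 to 123266829) follows on the minus strand. Only 6517 bases separate the 3′ ends of Clec4d and Clec4e, and 15089 bases separate Clec4n from Clec4d. Clec12a (129319654 to 129342266, plus strand) and Clec7a (129438554 to 129449742, minus strand) lie 96287 bases apart in the Dectin-1 cluster of the same chromosome, Clec5a lies at 40551234 to 40562773 (minus strand), and Mrc1 at 14234151 to 14336926 (plus strand).

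The 250 bases before the annotated start of transcription are printed for Clec4e, Clec7a and Clec4n, because Clec4e and Clec7a held the largest differences among the well expressed receptors and Clec4n alone held a match to a searched motif. The sequences are those of GRCm39 at chr6:123266830-123267079 (minus strand), chr6:129449741-129449990 (minus strand) and chr6:123206552-123206801 (plus strand), each written 5′ to 3′ on the strand of its gene, and capitals mark the motif match.
Clec4e: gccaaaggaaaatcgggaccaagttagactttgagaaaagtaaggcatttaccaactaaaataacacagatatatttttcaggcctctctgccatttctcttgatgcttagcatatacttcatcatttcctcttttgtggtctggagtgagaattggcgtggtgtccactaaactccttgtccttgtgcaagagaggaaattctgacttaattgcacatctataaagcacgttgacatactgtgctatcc
Clec7a: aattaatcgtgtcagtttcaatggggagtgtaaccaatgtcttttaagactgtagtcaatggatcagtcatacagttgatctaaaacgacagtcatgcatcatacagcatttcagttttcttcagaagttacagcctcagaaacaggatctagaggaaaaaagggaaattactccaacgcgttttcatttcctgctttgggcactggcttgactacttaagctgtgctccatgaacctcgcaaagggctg
Clec4n: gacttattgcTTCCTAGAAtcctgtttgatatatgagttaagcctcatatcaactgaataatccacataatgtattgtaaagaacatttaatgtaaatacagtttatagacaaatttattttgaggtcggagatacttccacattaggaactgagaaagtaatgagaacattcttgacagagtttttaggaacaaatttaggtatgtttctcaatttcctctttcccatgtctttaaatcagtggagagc
The 4 motifs were searched on both strands of the 10 members' promoters and of 21751 promoters of protein-coding genes with the same length. The E-box CACGTG occurred in 6.27% of all promoters and in 0 members. The AP-1 motif TGANTCA occurred in 6.17% and in 0 members, and the PU.1 motif GAGGAAGT in 2.08% and in 0 members. The STAT motif TTCNNNGAA occurred in 7.70% and in 1 member, Clec4n, at 240 bases before its start, with no other match overlapping it. A match describes these letters only, and the absence of one says nothing of a factor.

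With MSNP, Clec4e (Mincle) rose 2.73-fold, the scarce Mrc1 3.88-fold and Clec4a3 1.35-fold, and Clec7a (Dectin-1), Clec4a2, Clec5a, Clec4a1 and Clec12a fell. With HMSNP, at the same dose, Clec7a, Clec4a3 and Clec4n (Dectin-2) rose, and with both nonporous particles Clec4n and Clec7a fell. All values below are from one edgeR quasi-likelihood fit of the 15 libraries with Benjamini-Hochberg adjustment over the 19839 genes tested, where called means that the adjusted p was under 0.05.

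Against the nontreated controls, 8 of the 10 members were called in the MSNP-treated group, 3 higher and 5 lower, where 11.8% of all tested genes were called higher and 11% lower. In the HMSNP-treated group 3 members were called higher and 0 lower, against 2.46% and 2.7% of all genes. The SNP50-treated group had 0 members higher and 4 lower, against 0.454% and 0.958%, and the SNP100-treated group 0 higher and 2 lower, against 0.509% and 0.403%. Treated and control libraries did not overlap for 8 members with MSNP, where this held for 33.2% of all tested genes. It held for 6 members with HMSNP (22.9% of all genes), 6 with SNP50 (14.1%) and 4 with SNP100 (12.5%). The median log2 fold change of the 10 members was -0.22 in the MSNP-treated group, 0.17 with HMSNP, -0.22 with SNP50 and -0.17 with SNP100, while that of all tested genes lay between -0.05 and 0.00. These 4 comparisons share the same control libraries and are not independent of each other. Without Control replicate 3 the members called were 9 with MSNP, 5 with HMSNP, 4 with SNP50 and 4 with SNP100, against 29.5%, 8.66%, 18.9% and 5.16% of all genes. Without Control replicate 2 they were 8, 7, 4 and 3, against 33.2%, 25.2%, 1.21% and 1.65%. Fits of 6 libraries alone, the treated group and its controls, called 6 members with MSNP, against 13% of all genes, and 0 with each of HMSNP, SNP50 and SNP100, against 0.439%, 0.00574% and 0%. DESeq2, the filterByExpr filter and the length-trend offset also called Clec4e and Clec5a with HMSNP, and DESeq2 and filterByExpr called Clec4a2 and Clec5a with SNP100. The genes tested in the main fit include many of low count. Of the 14284 genes that filterByExpr kept, 33.1% were called with MSNP, 8.97% with HMSNP, 2.86% with SNP50 and 1.85% with SNP100.

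**Figure D1:**
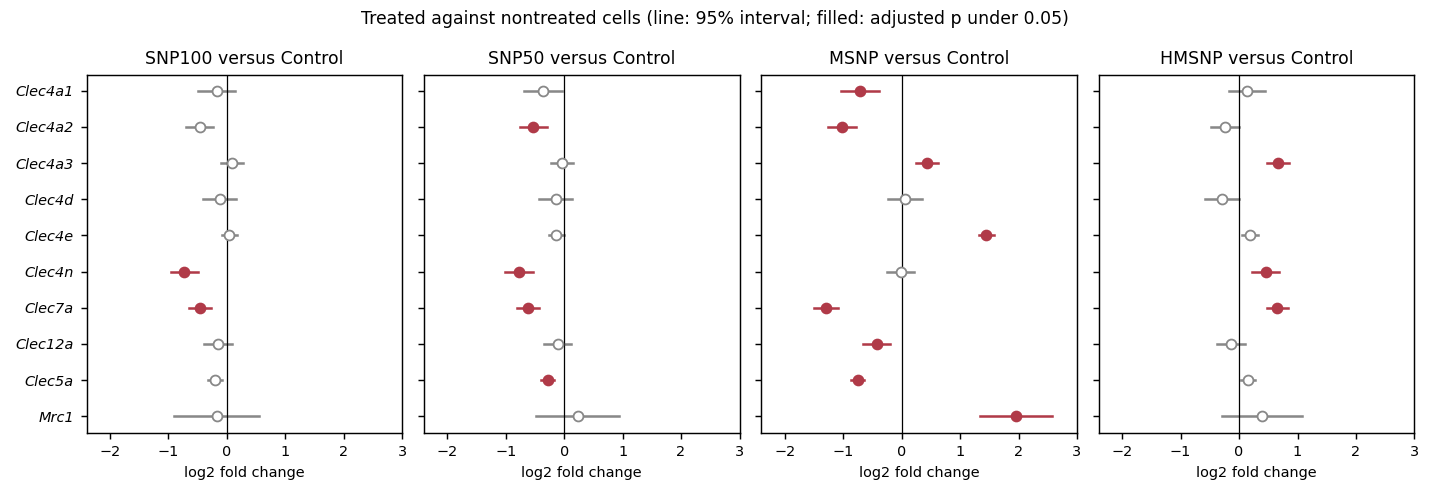
Log2 fold change of each receptor gene in the 4 treated groups against the nontreated controls, with 95% intervals (3 libraries a group). Filled points mark an adjusted p under 0.05, and the points of Clec7a lie left of 0 for SNP100, SNP50 and MSNP and right of 0 for HMSNP.

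Between treated groups, MSNP against SNP100 called 4 members higher and 4 lower, against 10.4% and 7.53% of all genes, and the libraries of both groups were apart for each of the 10 members and for 45.6% of all genes. HMSNP against MSNP called 5 higher and 2 lower, against 9.22% and 11%, and here the libraries were apart for all 10 members and for 45.3% of all genes. Fits of only the 6 libraries compared called all 10 members in both of these comparisons, where 40.9% of all genes were called in each. SNP50 against SNP100 called 0 members in edgeR, as it called 0% of all genes higher and 0% lower, and DESeq2 also called 0. In that comparison 1 member, Clec4e, had an unadjusted p under 0.05, with a log2 fold change of -0.18 (95% interval -0.31 to -0.05). The SNP50 libraries lay below the SNP100 libraries without overlap for 4 members, Clec4a3, Clec4e, Clec5a and Clec7a, where the libraries of these groups were apart in either direction for 23.9% of all genes. For the 9 members other than Clec4e the intervals of the difference between SNP50 and SNP100 included 0, and the widest among the members above 1 CPM was that of Clec4a1, from -0.51 to 0.13.

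**Figure D2:**
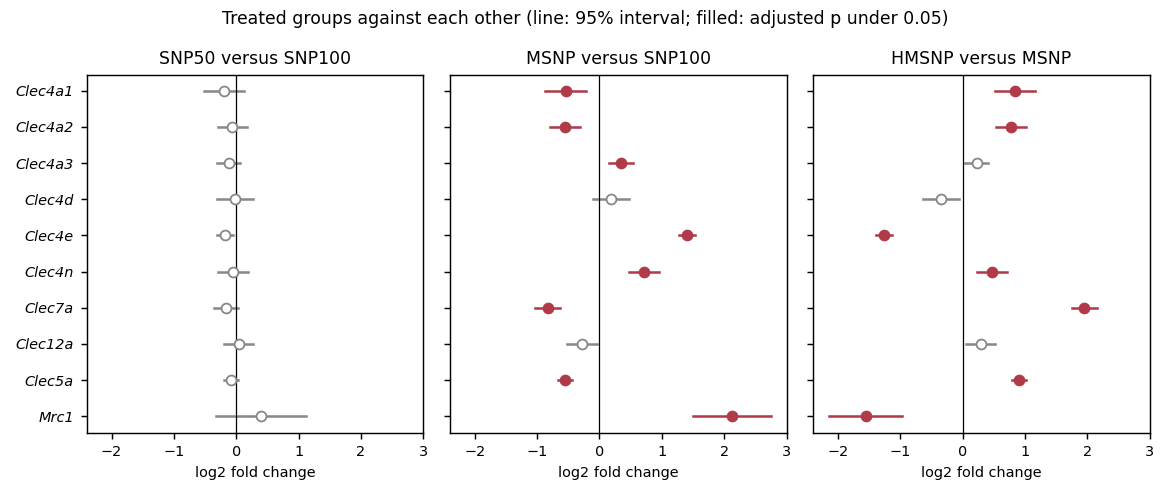
Log2 fold change of each receptor gene between treated groups, with 95% intervals (3 libraries a group), filled where the adjusted p was under 0.05. SNP50 against SNP100 has no filled point, and HMSNP against MSNP has Clec7a at 1.95 and Clec4e at -1.26.

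Levels can be set between genes only per exonic length, here the union of annotated exons, which may be longer than the transcripts expressed. In the controls Clec4d stood first, at 227 ± 63.7 CPM per kb (SD, n = 3), followed by Clec5a at 101.8 ± 2.04, Clec4e at 42.6 ± 1.49, Clec12a at 27.9 ± 6.23, Clec4a2 at 19.0 ± 3.95 and Clec4n at 16.2 ± 1.36 CPM per kb. Clec7a was at 4.93 ± 0.363, Clec4a3 at 3.45 ± 0.415, Clec4a1 at 1.76 ± 0.156 and Mrc1 at 0.0592 ± 0.0247 CPM per kb. Neighbours in this order did not overlap between libraries except Clec4a2 and Clec4n. Clec4d and Clec5a thus made up most of the receptor RNA of the line per length, and the mannose receptor was the lowest.

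**Figure D3:**
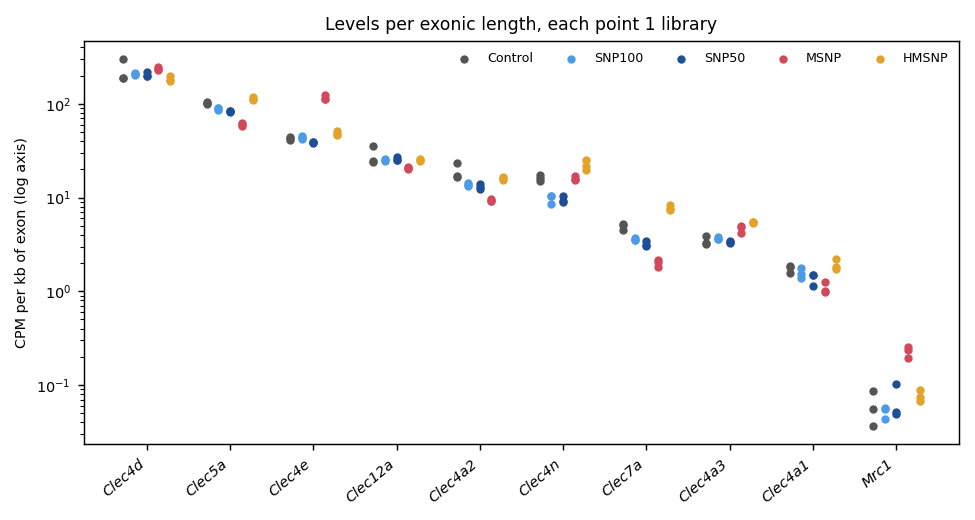
Level of each receptor gene per kb of exon in each of the 15 libraries (log axis, CPM per kb), with genes in the order of their control level. The genes span from 227 CPM per kb for Clec4d to 0.0592 for Mrc1 in the controls, and the MSNP libraries of Clec4e and Mrc1 lie above those of the other groups.

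Clec4e encodes Mincle, which binds mycobacterial glycolipids and a nuclear protein released by dead cells and signals through the Fc receptor gamma chain. Its level was 203, 213 and 218 CPM in the 3 control libraries and 613, 561 and 558 CPM in the MSNP-treated libraries. The SNP100-treated libraries held 216, 225 and 211 CPM, the SNP50-treated ones 196, 192 and 188, and the HMSNP-treated ones 237, 252 and 232. Each MSNP library thus lay far above every other library of the study, and the HMSNP libraries lay just above the controls without overlap. The log2 fold change was 1.45 with MSNP (SE 0.0615, adjusted p = 2.38e-10) and 0.19 with HMSNP (SE 0.0604, adjusted p = 0.0915), and HMSNP was 2.40-fold below MSNP (adjusted p = 9.81e-10). The HMSNP value was called without Control replicate 2 (0.21, adjusted p = 0.0274) and without Control replicate 3 (0.21, adjusted p = 0.0143). In the SNP50- and SNP100-treated groups the log2 fold changes were -0.14 and 0.04, with adjusted p of 0.364 and 0.833.

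**Figure D4:**
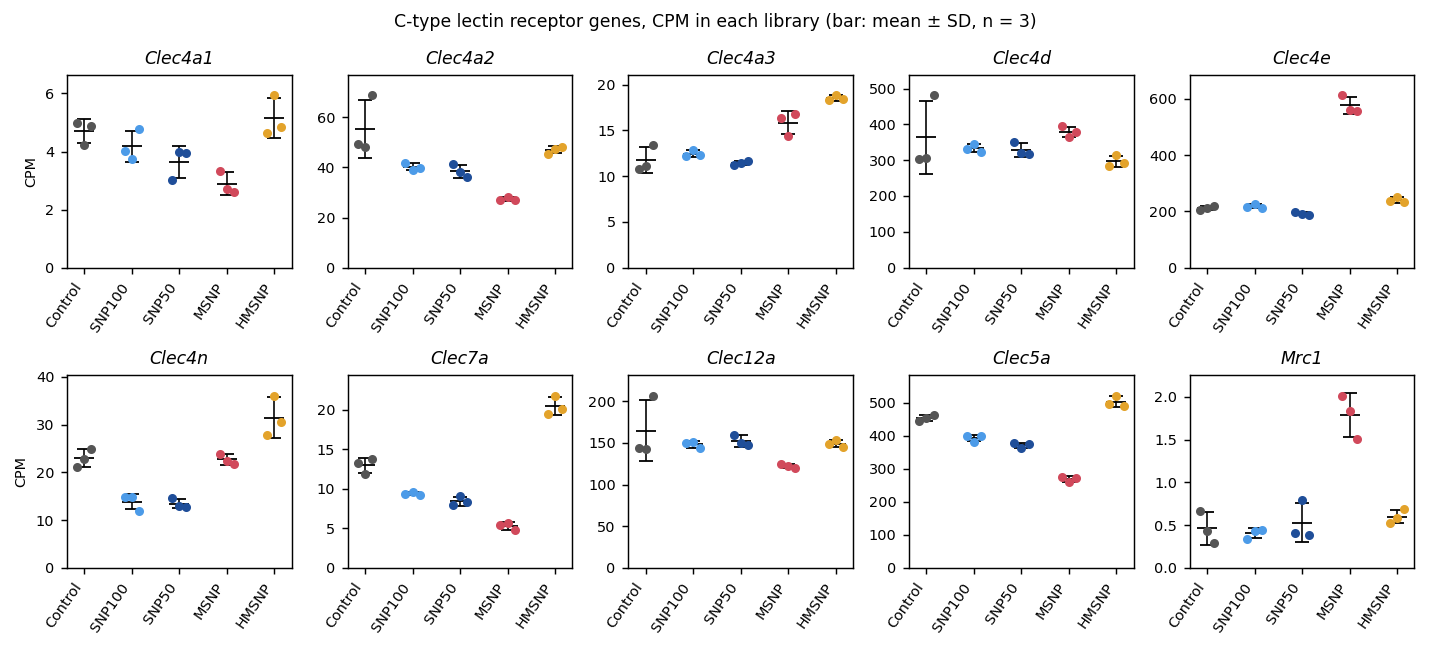
CPM of each receptor gene in every library of the 5 groups, with the mean and SD of 3 libraries, each panel on its own axis from 0. The MSNP points of Clec4e lie at 558 to 613 CPM, above all other libraries, and Control replicate 3 lies apart from the other controls for Clec4d, Clec4a2 and Clec12a.

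Clec4d encodes MCL (Dectin-3), the partner with which Mincle forms complexes, and its gene is the nearest neighbour of Clec4e. The controls held 304, 305 and 482 CPM, the highest being replicate 3, and the MSNP-treated libraries 395, 365 and 378 CPM. With SNP100 the libraries held 332, 345 and 324 CPM, with SNP50 349.6, 319 and 316, and with HMSNP 284, 315 and 291. The MSNP libraries lay between the lower controls and Control replicate 3, and above all libraries of the other treated groups. The log2 fold change with MSNP was 0.06 (95% interval -0.23 to 0.35, adjusted p = 0.79). Without Control replicate 3 it was 0.32 (adjusted p = 9.57e-05), and with the length-trend offset 0.28 (adjusted p = 0.00195). With HMSNP it was -0.29 (adjusted p = 0.201), and -0.38 without Control replicate 2 (adjusted p = 0.041). That value was -0.038 without Control replicate 3 (adjusted p = 0.754) and -0.052 with the length-trend offset (adjusted p = 0.618). HMSNP against MSNP gave -0.35 (adjusted p = 0.0822), which was called without Control replicate 1, 2 or 3 (adjusted p = 0.0424, 0.0486 and 6.22e-06). Without Control replicate 3 the neighbours Clec4e and Clec4d thus had log2 fold changes of 1.48 and 0.32 with MSNP.

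Clec4n encodes Dectin-2, which binds fungal mannans and signals through the Fc receptor gamma chain. It was at 21.1, 22.8 and 25.0 CPM in the controls, 14.9, 14.8 and 12.0 CPM with SNP100, and 14.6, 13.01 and 12.7 CPM with SNP50. The MSNP-treated libraries held 23.9, 22.4 and 21.8 CPM and the HMSNP-treated ones 27.7, 36.1 and 30.5 CPM. Every library of the nonporous groups lay below every control, the MSNP libraries overlapped the controls, and the HMSNP libraries lay above them. The gene fell by 0.72 (log2) with SNP100 (SE 0.111, adjusted p = 0.00484) and by 0.77 with SNP50 (SE 0.112, adjusted p = 0.0029). With MSNP the log2 fold change was -0.02 (95% interval -0.25 to 0.22), or 0.17 with the length-trend offset (adjusted p = 0.342), and with HMSNP 0.45 (SE 0.109, adjusted p = 0.0266). The call with HMSNP was lost without Control replicate 1 (adjusted p = 0.0531), without HMSNP replicate 2 (0.34, adjusted p = 0.139) and without HMSNP replicate 3 (adjusted p = 0.0638). With only the 6 libraries of each comparison, the calls with SNP100, SNP50 and HMSNP were all lost (adjusted p = 0.41, 0.306 and 0.302). MSNP was 1.64-fold above SNP100 at a different dose (adjusted p = 0.000272), and HMSNP 1.38-fold above MSNP at the same dose (adjusted p = 0.00558).

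Clec7a encodes Dectin-1, the receptor for beta-glucans, which signals through its own tyrosine motif. The controls held 13.3, 11.9 and 13.8 CPM, the SNP100-treated libraries 9.34, 9.66 and 9.25, and the SNP50-treated ones 7.93, 9.07 and 8.29. With MSNP the level was 5.39, 5.72 and 4.77 CPM, and with HMSNP 19.5, 21.8 and 20.1 CPM. No treated group overlapped the controls, with 3 groups below them and the HMSNP group above. The gene fell by 1.30 (log2) with MSNP (SE 0.0925, adjusted p = 5.58e-08), by 0.62 with SNP50 (SE 0.0896, adjusted p = 0.00286) and by 0.47 with SNP100 (SE 0.0885, adjusted p = 0.0202). It rose by 0.66 with HMSNP (SE 0.0865, adjusted p = 0.000372). The direct difference between HMSNP and MSNP was 1.95 (SE 0.0922, adjusted p = 7.51e-10), a 3.87-fold higher level with the hollow particle at the same dose. The SNP100 call was lost without Control replicate 1 (adjusted p = 0.0841) and without SNP100 replicate 1, 2 or 3 (adjusted p = 0.0921, 0.0788 and 0.0902). It was also lost with the length-trend offset (-0.39, adjusted p = 0.0811). With only the 6 libraries of each comparison, the calls with SNP100, SNP50 and HMSNP were all lost (adjusted p = 0.573, 0.422 and 0.0732).

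Clec5a encodes MDL-1, which signals through DAP12 and DAP10 (Hcst). It was at 444, 454 and 462 CPM in the controls, 400.2, 382 and 398 CPM with SNP100 and 377, 363 and 374 CPM with SNP50. The MSNP-treated libraries held 275, 259 and 272 CPM and the HMSNP-treated ones 496, 522 and 491 CPM. As for Clec7a, 3 groups lay below every control and the HMSNP group lay above them. The log2 fold change was -0.76 with MSNP (SE 0.0539, adjusted p = 5.6e-08), -0.29 with SNP50 (SE 0.0537, adjusted p = 0.0154), -0.20 with SNP100 (adjusted p = 0.108) and 0.15 with HMSNP (adjusted p = 0.115). HMSNP was 1.87-fold above MSNP (adjusted p = 8.58e-09). The SNP50 call was lost without SNP50 replicate 1, 2 or 3 (adjusted p = 0.0757, 0.0959 and 0.0594) and with no filter on low counts (adjusted p = 0.0566). Without Control replicate 3 the SNP100 value was called (-0.19, adjusted p = 0.0156), as was the HMSNP value (0.16, adjusted p = 0.0266), and the latter also without Control replicate 2 (0.17, adjusted p = 0.0448).

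Clec4a2 encodes DCIR, the inhibitory receptor of this family with a phosphatase-recruiting motif. It was at 49.4, 48.3 and 68.9 CPM in the controls, the highest being replicate 3, and at 26.9, 28.4 and 27.2 CPM with MSNP. SNP100 libraries held 41.8, 39.1 and 39.9 CPM, SNP50 libraries 41.3, 38.2 and 36.1, and HMSNP libraries 45.4, 47.5 and 48.1. Every treated library lay below every control, the HMSNP libraries only just. The gene fell by 1.02 (log2) with MSNP (SE 0.111, adjusted p = 5.79e-06), or by 0.82 without Control replicate 3 (adjusted p = 2.07e-09), and by 0.53 with SNP50 (adjusted p = 0.0293), or by 0.35 without Control replicate 3 (adjusted p = 0.000435). The SNP50 call was lost without SNP50 replicate 1, 2 or 3 (adjusted p = 0.0617, 0.126 and 0.132) and with the replicate number as a block (adjusted p = 0.0552). The value with SNP100 was -0.46 (adjusted p = 0.0679), and it was called without Control replicate 2 (-0.55, adjusted p = 0.0182) or Control replicate 3 (-0.28, adjusted p = 0.00596). With HMSNP it was -0.24 (adjusted p = 0.197), and -0.31 without Control replicate 2 (adjusted p = 0.0443). That value was -0.055 without Control replicate 3 (adjusted p = 0.641) and -0.084 with the length-trend offset (adjusted p = 0.396). HMSNP was 1.71-fold above MSNP (adjusted p = 9.28e-05). Of the stretches of 75 bases in its transcripts, 3.12% also occur in transcripts of Clec4a4, Clec4b1 or Mafg, so a small part of its reads could be assigned either way.

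Clec12a encodes MICL, an inhibitory receptor that senses dead cells and uric acid crystals. The controls held 144, 143 and 207 CPM, the last being replicate 3, and the MSNP-treated libraries 124, 122 and 119.7 CPM. The libraries of the other treated groups lay between 143 and 159.8 CPM. The MSNP libraries alone lay below all controls. The log2 fold change with MSNP was -0.43 (SE 0.110, adjusted p = 0.00999), and -0.22 without Control replicate 3 (adjusted p = 0.000841). With the length-trend offset it was -0.46 (adjusted p = 0.00377). With only the 6 libraries of the comparison the call was lost (adjusted p = 0.135). HMSNP against MSNP gave 0.29 (95% interval 0.05 to 0.52, adjusted p = 0.0842), which was called without Control replicate 1 (adjusted p = 0.0477), 2 (adjusted p = 0.0299) or 3 (adjusted p = 2.31e-05).

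Clec4a1 and Clec4a3 are relatives of DCIR in the same stretch of the chromosome. Clec4a1 was at 4.22 to 4.99 CPM in the controls, 2.61 to 3.34 CPM with MSNP and 4.64 to 5.94 CPM with HMSNP. Its MSNP libraries lay below all controls, with a log2 fold change of -0.71 (SE 0.153, adjusted p = 0.00309), and HMSNP was 1.79-fold above MSNP (adjusted p = 0.000769). Its lower level with MSNP than with SNP100 (-0.54, adjusted p = 0.0237) was lost without SNP100 replicate 1 or 3 (adjusted p = 0.0501 and 0.112) and without MSNP replicate 2 or 3 (adjusted p = 0.0947 and 0.0957). Clec4a3 moved the other way, from 10.7 to 13.4 CPM in the controls to 14.4 to 16.8 CPM with MSNP and 18.3 to 18.9 CPM with HMSNP. Both porous groups lay above every control, with log2 fold changes of 0.43 with MSNP (SE 0.0880, adjusted p = 0.00194) and 0.66 with HMSNP (SE 0.0874, adjusted p = 0.000381). They were 0.54 (adjusted p = 7.99e-06) and 0.76 (adjusted p = 9.61e-07) without Control replicate 3. With only the 6 libraries of each comparison neither was called (adjusted p = 0.0732 and 0.0924). The difference between HMSNP and MSNP was 0.23 (95% interval 0.04 to 0.41, adjusted p = 0.0843), and it was called without Control replicate 2 (adjusted p = 0.0448) or Control replicate 3 (adjusted p = 0.00754). In the nonporous groups neither Clec4a1 nor Clec4a3 was called, with log2 fold changes between -0.36 and 0.09.

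Mrc1 encodes the mannose receptor CD206, an uptake receptor for mannose-bearing glycoproteins that is used as a marker of alternatively activated macrophages. Its counts were 22, 15 and 11 in the controls and 61, 68 and 51 in the MSNP-treated libraries, or 0.286 to 0.670 CPM and 1.51 to 2.02 CPM. In the other treated groups it had 12 to 30 counts and 0.338 to 0.794 CPM. The MSNP libraries lay above every other library, at a level that was still the lowest of the 10 receptors per length (0.228 ± 0.0326 CPM per kb, SD, n = 3). The log2 fold change was 1.96 with MSNP (95% interval 1.34 to 2.58, adjusted p = 0.000116), and HMSNP was 2.95-fold below MSNP (adjusted p = 0.00061). With HMSNP it was 0.40 (95% interval -0.29 to 1.08, adjusted p = 0.46), an interval that includes 0. Without Control replicate 3 the values were 1.70 with MSNP (adjusted p = 0.000129) and 0.14 with HMSNP (adjusted p = 0.871), and without Control replicate 1 the HMSNP value was 0.77 (adjusted p = 0.167).

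As a share of the summed receptor level per length, Clec4e went from 9.74% ± 1.34 in the controls to 24.9% ± 0.518 with MSNP (SD, n = 3). Clec5a went from 23.3% ± 3.41 to 12.9% ± 0.284 over the same groups, and Clec4a2 from 4.26% ± 0.144 to 2.01% ± 0.126. Clec4d kept the largest share, with 50.4% ± 4.92 in the controls, 50.6% ± 0.350 with MSNP and 43.5% ± 0.395 with HMSNP. With HMSNP Clec5a made up 26.6% ± 0.471, Clec4n 5.19% ± 0.458 and Clec7a 1.83% ± 0.0221, against 3.68% ± 0.358 and 1.13% ± 0.146 for the latter genes in the controls. These shares are tied to each other by their sum and are given as a description.

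Of 65 genes listed for the signalling downstream of these receptors, 59 had enough counts to be tested. In the MSNP-treated group 12 were called higher and 17 lower, with a median log2 fold change of -0.09, and in the HMSNP-treated group 8 higher and 0 lower, with a median of 0.17. Those counts can be read against 11.8% higher and 11% lower among all genes with MSNP, and 2.46% and 2.7% with HMSNP. With SNP100 1 was higher and 1 lower (0.509% and 0.403% of all genes), and with SNP50 1 higher and 2 lower (0.454% and 0.958%). The count depended on the libraries fitted, and with MSNP it was 42 in all without Control replicate 3, where 29.5% of all genes were called, and 17 with only the 6 libraries of the comparison (13% of all genes). With HMSNP it was 27 without Control replicate 2 (25.2% of all genes), 14 without Control replicate 3 (8.66%) and 1 with the 6 libraries (0.439%). With SNP100 and SNP50 it was 11 (5.16% of all genes) and 28 (18.9%) without Control replicate 3. Among the genes that filterByExpr kept, 33.1% were called with MSNP and 8.97% with HMSNP, in either direction.

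The adaptors of the receptors were called in neither porous group in the fit of all libraries. Fcer1g, the gamma chain that Mincle, MCL and Dectin-2 use, was at 394 ± 138 CPM in the controls, 336 ± 6.77 with MSNP and 301 ± 13.5 with HMSNP. Tyrobp (DAP12) was at 433 ± 141, 391 ± 8.06 and 355 ± 5.22 CPM, and Hcst (DAP10) at 6.29 ± 2.83, 6.45 ± 0.769 and 5.56 ± 0.0949 CPM (SD, n = 3 throughout). Tyrobp and Hcst were called higher with MSNP without Control replicate 3 (0.16 and 0.47, adjusted p = 0.0176 and 0.006), with Tyrobp at -0.15 in the fit of all libraries. Without Control replicate 2, Fcer1g was called lower with MSNP (-0.38, adjusted p = 0.0476) and HMSNP (-0.53, adjusted p = 0.017), and Tyrobp lower with HMSNP (-0.41, adjusted p = 0.039). The kinase Syk, to which the activating receptors couple, rose from 121.6 ± 30.2 to 243 ± 6.86 CPM with MSNP, a log2 fold change of 1.001 (SE 0.128, adjusted p = 2.8e-05). With HMSNP Syk was at 147 ± 6.85 CPM (0.28, adjusted p = 0.201), and it was called without Control replicate 2 (0.46, adjusted p = 0.0137). Card9, the adaptor below Syk, fell by 0.45 (log2) with MSNP (adjusted p = 0.025), a call lost with the length-trend offset (-0.35, adjusted p = 0.0537), while Src, a kinase that phosphorylates tyrosine motifs, rose by 0.92 with MSNP and 0.52 with HMSNP (adjusted p = 3.88e-06 and 0.00555). Syk and Src do not stand for the kinases as a set. Of the 14 kinases and proximal enzymes listed, 5 were called higher and 5 lower with MSNP, with a median log2 fold change of 0.02. Among all genes 11.8% were called higher and 11% lower with MSNP.

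Ptpn6, which encodes the phosphatase SHP-1 that inhibitory receptors recruit, fell from 363 ± 18.3 to 184 ± 4.23 CPM with MSNP (-0.98, adjusted p = 1e-08) and was at 427 ± 6.10 CPM with HMSNP (0.23, adjusted p = 0.0352). Among the transcription factors below the pathway, Fos went from 104 ± 7.97 to 10.1 ± 0.512 CPM with MSNP, a log2 fold change of -3.37 (adjusted p = 1.11e-11), while Jun went from 57.9 ± 0.929 to 159 ± 3.36 CPM (1.46, adjusted p = 1.94e-10). Nfatc1, a factor activated through calcineurin, fell by 2.44 (adjusted p = 1.75e-08). None of these 3 was called with HMSNP, where Fos was at 103 ± 5.07 CPM, but Nfatc1 was called lower there without Control replicate 3 (-0.32, adjusted p = 0.0126). The NF-kB subunit genes Nfkb2 and Relb rose with HMSNP, by 0.62 and 0.59 (adjusted p = 2.56e-05 and 0.00207). Of the induced targets, Ptgs2 (cyclooxygenase) fell by 2.004 with MSNP (adjusted p = 2.19e-07), and Nlrp3, the inflammasome sensor, fell by 0.56 with MSNP and rose by 0.53 with HMSNP (adjusted p = 0.000225 and 0.00237). Between HMSNP and MSNP directly, 23 of the 59 genes were called higher and 6 lower, against 9.22% and 11% of all genes.

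**Figure D5:**
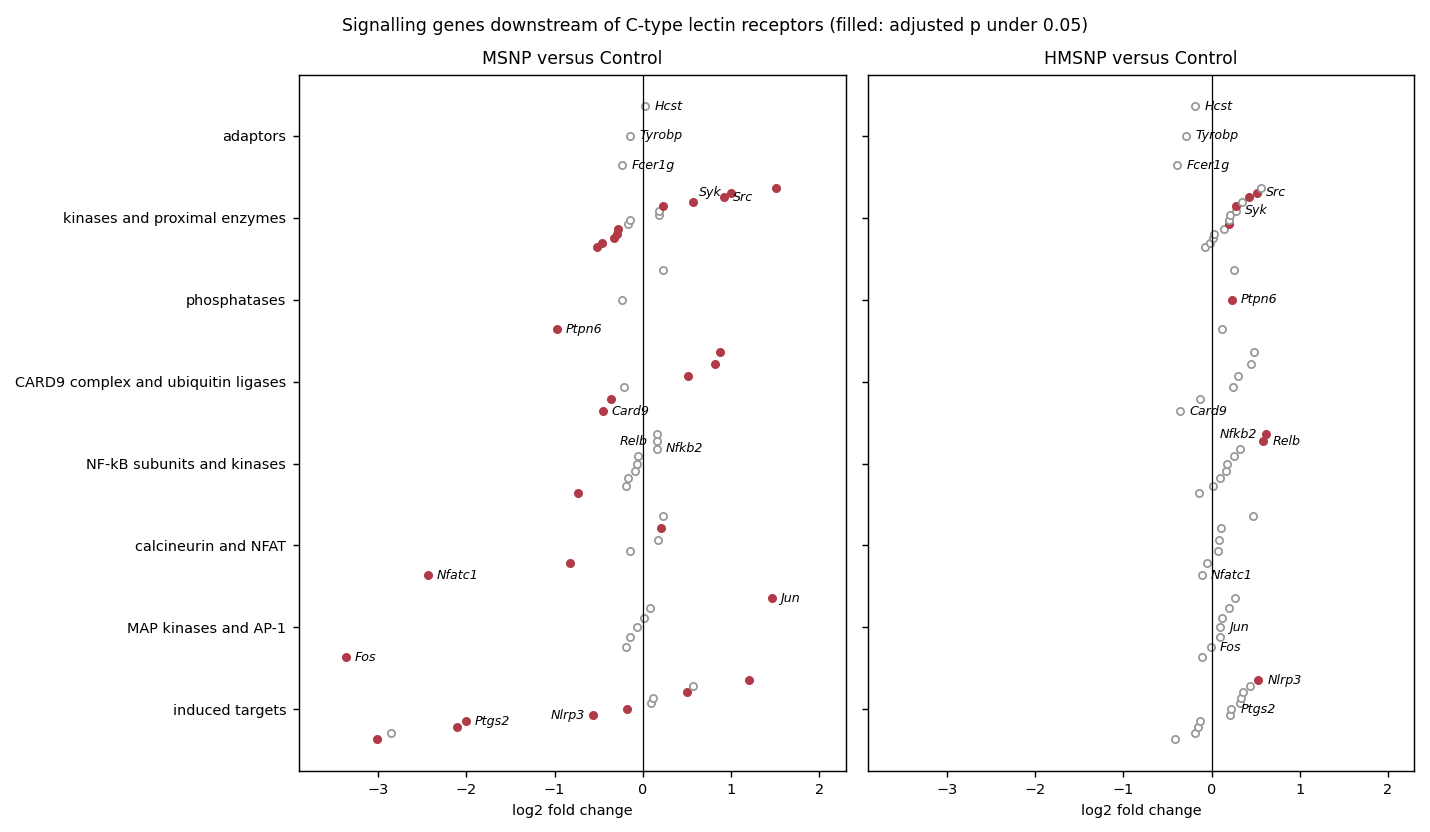
Log2 fold change of the 59 tested signalling genes against the nontreated controls, grouped by role, with MSNP on the left and HMSNP on the right (3 libraries a group). Filled points mark an adjusted p under 0.05, 29 of them with MSNP, from Fos at -3.37 upward, and 8 with HMSNP, all right of 0.

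Of 44 other C-type lectin and lectin-like genes listed, 25 were tested and 7 were called with MSNP, 2 higher and 5 lower, against the 11.8% and 11% of all genes. With HMSNP 0 were called higher and 2 lower (2.46% and 2.7% of all genes). The same counts held with SNP50 (0.454% and 0.958%) and SNP100 (0.509% and 0.403%). The 2 lower ones were Olr1, a receptor for oxidised lipoprotein, and Cd207 (langerin). Olr1 was at 26.3 ± 6.61 CPM in the controls, 9.60 ± 0.458 with SNP100, 7.13 ± 0.231 with SNP50, 2.29 ± 0.184 with MSNP and 5.79 ± 0.717 with HMSNP (SD, n = 3). Cd207 was at 28.1 ± 5.97 CPM in the controls and 12.0 ± 0.470 with MSNP, and its log2 fold changes were -1.22 with MSNP and -0.55 with HMSNP (adjusted p = 2.8e-06 and 0.017), the latter -0.36 without Control replicate 3 (adjusted p = 0.00685). Mrc2, the relative of the mannose receptor that takes up collagen, fell by 1.20 with MSNP (adjusted p = 0.000114), opposite to Mrc1. Cd93 rose by 2.36 from 0.436 ± 0.199 CPM (adjusted p = 6.21e-06), Layn (a hyaluronan receptor) rose by 0.68 (adjusted p = 0.000564), and Cd72, an inhibitory lectin-like receptor, fell by 0.77 (adjusted p = 2.12e-05). With HMSNP the count of these lectins was 5 without Control replicate 2 and 6 without Control replicate 3, against 25.2% and 8.66% of all genes, and with SNP50 it was 5 without Control replicate 3, against 18.9%. Among the genes that filterByExpr kept, 33.1% were called with MSNP, in either direction.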

How the data were processed

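RNA from RAW264.7 cells was measured in 15 libraries, 3 for each of 5 groups at 6 h. The libraries were directional and made from poly(A) RNA. The authors mapped the reads to GRCm39 and deposited raw counts per gene and library, without pooling or normalization. The submitters' processing notes name STAR 2.7.9a, cutadapt 1.16 and featureCounts 1.6.3. The strand setting and annotation release of the counting are not given in the sources used here, so that reads of a gene and an antisense neighbour cannot be told apart. Annotated genes overlap Clec4a2 (Gm44132, 0 counts in all, and Gm67020), Clec4d (Gm68468), Clec5a (Or9a4, 60 counts in all) and Mrc1 (Mir511, 1 count).

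Symbols, positions and exonic lengths came from GENCODE vM39, which held 56630 of 57186 identifiers. The 19839 genes whose counts added up to 10 or more were tested in R 4.3.3 with edgeR 4.0.16 (TMM, quasi-likelihood test, one model of all groups, Benjamini-Hochberg adjustment, threshold 0.05). The alternatives were RLE normalization, DESeq2 1.42.0, filterByExpr, no filter, only the 6 libraries compared, a replicate block, an offset for the trend with length (lowess span 0.3), and leaving out each library. Total counts of 29369934 to 42617812 per library set the precision, and 3 counts were taken as the floor.

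The members, gene lists and tests were chosen with earlier results of these data known. Named genes were the members, the adaptor genes with Syk and Card9, and, per list, the 5 called genes of smallest p in MSNP and HMSNP against the controls and in HMSNP against MSNP. A gene that the rule names is not reported here. Pattern likeness was the root mean square difference of centred log2 CPM (prior count 2) over 15 libraries. The edgeR fit alone was tested on simulated counts, with the same spread per gene in every group and no length trend. That test does not cover the wider spread of these controls.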

Additional observations from a re-analysis of the deposited data

Results flagged for a closer look

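The opposite directions of Clec7a with the 2 porous particles stood out. Its log2 fold change against the controls was -1.30 with MSNP and 0.66 with HMSNP, both called, every MSNP library lay below and every HMSNP library above all controls, and the direct test of HMSNP against MSNP gave 1.95 (SE 0.0922, adjusted p = 7.51e-10, edgeR). With only the 6 libraries of each comparison the MSNP value was still called (adjusted p = 0.000714), but the HMSNP value was not (0.65, adjusted p = 0.0732).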

How the results depend on the processing

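The 70 log2 fold changes of the members (10 genes in 7 comparisons) were each recomputed in 22 alternatives. Of the 32 that were called, none changed sign in any alternative, 20 were called in every one and 27 in every one except the fit of only 6 libraries. The number of members called moved as follows. With SNP100 it was 2, and 4 with DESeq2 (2.5% of all genes) and 4 with filterByExpr (1.85%). It was 0 with only the 6 libraries (0%) and 1 to 4 on leaving out each library (0.29% to 5.16%). With SNP50 it was 4, and 0 with the 6 libraries (0.00574%) and 2 to 4 on leaving out each library (0.443% to 18.9%). With HMSNP it was 3, and 5 with DESeq2 (9.8%), 5 with filterByExpr (8.97%) and 5 with the length-trend offset (7.41%). It was 0 with the 6 libraries (0.439%) and 2 to 7 on leaving out each library (2.51% to 25.2%), the highest without Control replicate 2. For MSNP against SNP100 it was 8, and 7 to 10 on leaving out each library (13.4% to 33.1% of all genes). The other alternatives called 8 to 10 there (12.2% to 40.9%). For HMSNP against MSNP it was 7, and 7 to 10 on leaving out each library (16.1% to 33.9%). The other alternatives called 7 to 10 there (13.8% to 40.9%). With the 6 libraries the spread is no longer pooled with that of the groups left out, and fewer genes are tested. The causes of the shifts were not tested.

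Only uncalled log2 values changed sign. Over the fits that leave out 1 library, Clec4d ranged from -0.23 to 0.13 with SNP100, -0.26 to 0.10 with SNP50 and -0.047 to 0.32 with MSNP. Clec12a ranged from -0.24 to 0.045 with SNP100, -0.20 to 0.081 with SNP50 and -0.21 to 0.057 with HMSNP, and Clec4a3 from -0.075 to 0.063 with SNP50. Mrc1 ranged from -0.44 to 0.20 with SNP100, -0.21 to 0.60 with SNP50 and -0.037 to 0.58 in SNP50 against SNP100. Clec4n ranged from -0.047 to 0.058 with MSNP and -0.14 to 0.0020 in SNP50 against SNP100. With the length-trend offset Clec4d was 0.0025 with SNP100 and Clec4n 0.17 with MSNP, and Clec4n with MSNP was 0.0020 with RLE normalization and 0.0016 with DESeq2.

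Libraries with the same replicate number deviated together in some pairs and not in others (correlation -0.52 to 0.57 over 30 pairs, median 0.02). Those numbered 2 of the Control, SNP50, MSNP and HMSNP groups correlated at 0.24 to 0.57 with each other. SNP100 replicate 2 was at -0.39 to 0.04 with them. Whether the numbers pair the samples cannot be told from these values, and the labels do not say. With a replicate block the members called were 2 with SNP100 (0.716% of all genes), 3 with SNP50 (0.907%), 8 with MSNP (22.1%) and 3 with HMSNP (4.46%). They were 0 for SNP50 against SNP100 (0%), 8 for MSNP against SNP100 (16.9%) and 7 for HMSNP against MSNP (19.2%). Clec4a2 with SNP50 was the call lost with the block (adjusted p = 0.0552). Depth limits mainly Mrc1, with 11 to 68 counts per library.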

Other observations

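The genes whose levels followed the receptors most closely over the 15 libraries were ranked by the root mean square difference of log2 CPM, each gene centred on its own mean, among 11531 candidate genes. For Clec4e the closest were Zw10 (0.0976), a kinetochore protein gene, Plin2 (0.0987), which encodes a coat protein of lipid droplets, and Slc11a2 (0.108), an iron transporter gene, where the median candidate was at 0.608. Plin2 was at 118 CPM in the controls and 357 CPM with MSNP, and Slc11a2 at 62.0 and 192 CPM, as group means. For Clec7a they were Gpr35 (0.161), Lpl (0.210), the lipoprotein lipase gene, and Dok2 (0.230), against a median of 0.686, and Lpl was at 879.6 CPM in the controls, 520.1 CPM with MSNP and 1638 CPM with HMSNP. For Clec4n they were Dnmt3l (0.198), Slc48a1 (0.212), a heme transporter gene, and Cd36 (0.219), a scavenger receptor gene, against a median of 0.527. Cd36 was at 244 CPM in the controls, 151 with SNP100, 127 with SNP50, 174 with MSNP and 316 with HMSNP. The libraries of a group share their treatment and the number in their titles, so that this likeness is a description.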
